A study of Mus musculus with 9 samples.

Results

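The 10 genes described here encode receptors for ER-phagy, the selective autophagy of the endoplasmic reticulum (ER). They were found by symbol in a table of 24411 genes, where all 10 were present, and all 10 passed the filter on low counts. Poly(A) RNA had been sequenced from 9 mouse livers on the C57BL/6 background, taken at 3 months of age, with 3 livers in each of 3 groups. All of the mice carried floxed Atg7 alleles. Livers of the cont group had no Cre recombinase. Atg7-KO livers also carried Cre under the albumin promoter (Alb-Cre), which removes Atg7 from hepatocytes and leaves it in the other cells of the liver. S351A livers carried floxed Atg7, Alb-Cre and, on both copies of p62, an allele named for the change of a serine to alanine. For S351A replicates 2 and 3, the genotype entry of the labels names other positions in p62 than the titles do, and the titles were followed.

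ER-phagy receptors sit in or on the ER membrane and bind ATG8 proteins such as LC3 and GABARAP, so that pieces of ER are enclosed by the growing autophagosome and taken to the lysosome. ATG7 is the enzyme that activates ATG8 proteins for their attachment to lipid, and without it the receptors lose this route of degradation. The liver holds much ER, where plasma proteins are made and drugs are metabolised. The receptors fall into 3 kinds. Fam134a, Fam134b, Fam134c, Rtn3 and Atl3 encode proteins whose hairpins curve the ER membrane. Ccpg1, Tex264 and Sec62 encode proteins that span it. Calcoco1 and Cdk5rap3 encode soluble proteins that are recruited to it. Levels are given as CPM (counts divided by the library total in units of 1e+06, after TMM scaling), and a gene was called when its adjusted p was under 0.05 and its fold change above 1.5 in edgeR's quasi-likelihood test over 11199 genes. The question for each comparison was whether the RNA of a receptor differed with the loss of Atg7, with or without the p62 allele.

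Library totals ran from 713841 to 15426600 counts, and all 3 S351A libraries were below the other 6 in total, so depth and the p62 allele cannot be told apart. Atg7 itself was called lower in Atg7-KO (log2 fold change -0.74 ± 0.19, SE, adjusted p = 0.00757) and in S351A (-1.07 ± 0.21, adjusted p = 0.00318), both against cont and with n = 3, and in neither under total library size (-0.21 and -0.59). Summed levels of 6 hepatocyte markers ran from 48036 to 108204 CPM in cont, from 34631 to 41430 CPM in Atg7-KO and from 33034 to 45406 CPM in S351A. Summed levels of 5 ductular cell markers ran from 46.8 to 82.7 CPM in cont, from 810 to 1193 CPM in Atg7-KO and from 714 to 1185 CPM in S351A. In both groups against cont, 5 of 6 hepatocyte markers were called lower, 5 of 5 ductular markers higher, 5 of 6 macrophage markers higher and 5 of 6 markers of stellate cells and matrix higher, where 18.1% of all tested genes were called lower and 19.9% higher in Atg7-KO, and 13% and 15.6% in S351A. Of 5 endothelial markers, Lyve1 was called higher in both groups (2.03 and 1.33) and Stab2 and Clec4g were called lower in Atg7-KO (-1.03 and -1.11). Of 2 tested erythroid markers, Alas2 was called lower in both (-3.27 and -2.32). Macrophage markers summed to 208 to 290 CPM in cont and 438 to 661 CPM in the other groups, stellate and matrix markers to 237 to 483 CPM and 1078 to 1617 CPM, endothelial markers to 91.6 to 175 CPM and 106 to 145 CPM, and erythroid markers to 110 to 230 CPM and 8.55 to 41.9 CPM, with up to 2 of the 3 erythroid markers at 0 in a library. In bulk tissue, fewer cells of a type and less RNA per cell cannot be told apart, and the part of this shift in the receptor values was not tested.

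Most receptor RNAs showed no call in any comparison. In Atg7-KO against cont, 1 of the 10 receptors was called lower and 0 higher by edgeR, against the same 18.1% and 19.9% of all tested genes. The single call was Cdk5rap3. In S351A against cont, the count was again 1 lower (Cdk5rap3) and 0 higher, against 13% and 15.6% of all tested genes. Both comparisons share the cont libraries. In S351A against Atg7-KO, 0 of 10 were called by edgeR, 0 by DESeq2 and 0 by limma-voom, where 0.00893%, 0.348% and 0% of all tested genes were called. None (0 of 10) had an unadjusted p under 0.05 there, where 6.6% of all tested genes did. The F test among the 3 groups called 1 of 10, where it called 35.1% of all tested genes. The median log2 fold change of the receptors was -0.10, -0.21 and -0.11 in the same order of comparisons, and that of all tested genes was -0.03, -0.03 and 0.01. With scaling by total library size the receptors' median was 0.42 in Atg7-KO and 0.27 in S351A against cont, and -0.17 between S351A and Atg7-KO.

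**Figure D1:**
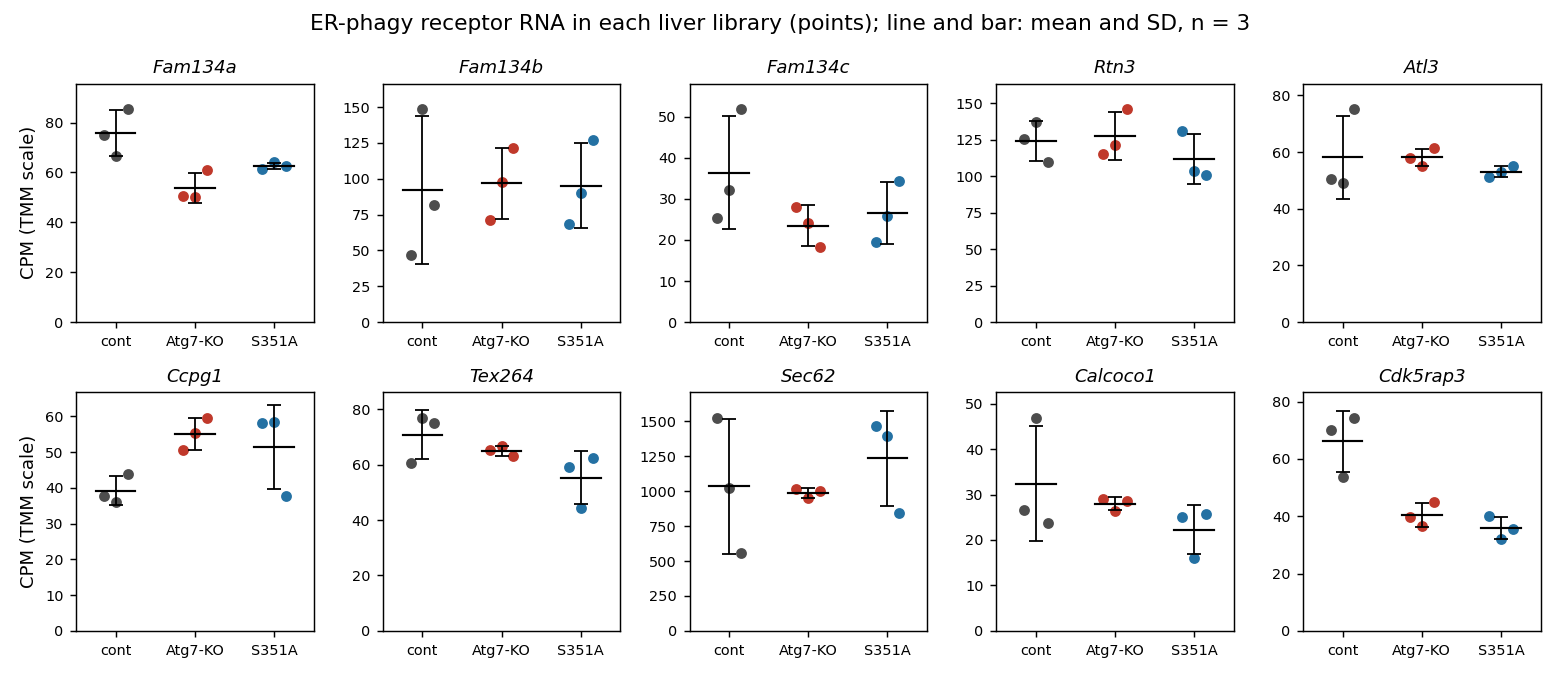
Level of each receptor RNA (vertical axis, CPM on the TMM scale, from 0) in the 3 libraries of each group (horizontal axis); points are libraries, and the line and bar give mean and SD. In the panels of Cdk5rap3 and Fam134a all 3 cont libraries lie above the other 6, and Sec62 has the highest scale.

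Cdk5rap3 (mm10, chr11:96907426-96916496, minus strand) encodes a receptor for ER whose ribosomes have stalled, and it is part of the ligase that attaches the ubiquitin-like protein UFM1 to ribosomes at the ER. Its level was 70.1, 53.8 and 74.3 CPM in cont replicates 1 to 3. In Atg7-KO it was 39.6, 36.7 and 45.0 CPM. In S351A it was 39.9, 32.1 and 35.5 CPM. All 6 libraries with Alb-Cre lay below all 3 cont libraries, and Atg7-KO and S351A overlapped each other. The fitted level fell in Atg7-KO to 0.610 times that of cont (log2 fold change -0.71 ± 0.19, SE, adjusted p = 0.0104, n = 3). In S351A it fell to 0.542 times that of cont (log2 fold change -0.88 ± 0.21, adjusted p = 0.00793). Between S351A and Atg7-KO the log2 difference was -0.17, with a 95% interval from -0.63 to 0.29. Groups without overlap were common in these data: 51.6% of all tested genes had them in Atg7-KO against cont, 37.9% in S351A against cont and 16.9% in S351A against Atg7-KO.

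Another transcript, D030028A08Rik, lies on the opposite strand at the Cdk5rap3 locus and shares exonic sequence with it, and the strand setting of the counting is not given in the sources used here, so reads from the overlap may have gone to either gene. D030028A08Rik had 8, 8 and 13 counts in cont, 53, 18 and 15 in Atg7-KO and 10, 11 and 6 in S351A. Its level rose in Atg7-KO (log2 fold change 1.88 ± 0.51, adjusted p = 0.0118) and in S351A (2.19 ± 0.58, adjusted p = 0.0142), the opposite direction to Cdk5rap3. With both genes counted together, the level was 75.1, 56.6 and 75.4 CPM in cont, against 51.8, 43.1 and 51.8 CPM in Atg7-KO and 51.3, 45.6 and 42.9 CPM in S351A. This sum holds any change of either gene, and how reads of the overlap were divided was not tested. The summed groups still did not overlap with cont, but the call was lost in Atg7-KO (log2 fold change -0.50, adjusted p = 0.0525) and in S351A (-0.57, adjusted p = 0.0525). The call in Atg7-KO was also lost without Atg7-KO replicate 2 (-0.65, adjusted p = 0.0572), and the calls in both groups were lost after thinning every library to the total of the smallest (-0.69 and -0.68, adjusted p = 0.0569 and 0.0700).

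The 250 bases upstream of RefSeq start sites (GRCm38.p6, the assembly of mm10) are printed for 3 genes because Cdk5rap3 and Ufl1 encode partners and were both called lower, and the Fam134a window held the most motif matches of the receptors. The first is Cdk5rap3 (chr11:96916515-96916764, minus strand), the next its ligase partner Ufl1 (chr4:25281822-25282071, minus strand) and the last Fam134a (chr1:75142536-75142785, plus strand). Capitals mark matches to the 4 motifs searched on both strands.
Cdk5rap3: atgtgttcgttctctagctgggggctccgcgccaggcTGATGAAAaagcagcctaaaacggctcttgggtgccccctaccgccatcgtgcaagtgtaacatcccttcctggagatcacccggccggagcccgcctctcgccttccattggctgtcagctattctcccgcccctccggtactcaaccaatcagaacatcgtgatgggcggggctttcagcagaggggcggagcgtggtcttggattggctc
Ufl1: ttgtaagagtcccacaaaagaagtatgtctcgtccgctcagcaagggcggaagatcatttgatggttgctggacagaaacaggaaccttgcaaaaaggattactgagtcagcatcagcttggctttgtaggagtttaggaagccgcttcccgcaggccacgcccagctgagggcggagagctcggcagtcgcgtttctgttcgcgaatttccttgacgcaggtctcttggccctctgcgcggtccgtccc
Fam134a: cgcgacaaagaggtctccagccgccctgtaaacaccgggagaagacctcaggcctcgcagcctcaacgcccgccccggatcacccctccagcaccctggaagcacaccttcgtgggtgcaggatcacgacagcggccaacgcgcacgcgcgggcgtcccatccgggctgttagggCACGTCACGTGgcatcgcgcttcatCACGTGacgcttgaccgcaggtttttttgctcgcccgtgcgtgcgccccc
The motifs were CACGTG, the E-box within the CLEAR element read by TFEB and TFE3, which 6.02% of 32851 RefSeq promoter windows hold, TGACNNNGC, the core of the antioxidant response element read by NRF2 (10.2%), TGATGNAA, the C/EBP-ATF element read by ATF4 (3.45%), and TGACGTG, the core of an element read by ATF6 (1.65%). In the Cdk5rap3 window the match was TGATGNAA, 213 bases upstream of the start, and the window of its other RefSeq start held no match. The Ufl1 window held none. In the Fam134a window, CACGTG began 70 and 50 bases upstream, and TGACGTG on the opposite strand, at 75 bases, overlaps the first of these. Of the other receptors, Sec62 held CACGTG at 32 bases, 1 of 4 Fam134b starts held it at 188 bases, and Rtn3 held TGACNNNGC on the opposite strand at 92 bases. These matches describe letters in a window and were not tested as binding sites.

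Ccpg1 (chr9:72985429-73016340, plus strand) encodes a membrane-spanning receptor that binds both LC3 and the kinase scaffold FIP200, and its transcription is known to rise in ER stress. The levels were 37.7, 36.0 and 44.0 CPM in cont. In Atg7-KO they were 50.6, 55.3 and 59.6 CPM. In S351A they were 58.2, 58.4 and 37.8 CPM. All 3 Atg7-KO libraries lay above cont, while S351A replicate 3 lay within the cont range. The log2 fold change was 0.48 ± 0.20 in Atg7-KO (95% interval 0.05 to 0.91, adjusted p = 0.0755) and 0.38 ± 0.21 in S351A (95% interval -0.08 to 0.84, adjusted p = 0.203), and neither was called. Its counts were partly fractional, and in GENCODE M21 its exons overlap those of Pigb on the opposite strand and of Gm44503, a coding gene on the same strand; whether reads were shared between these genes was not tested.

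Which receptor was called also depended on the scaling of the libraries. Scaling by total library size raised the median log2 fold change against cont over all tested genes, by 0.54 for Atg7-KO and by 0.49 for S351A. It called 38.3% of all tested genes higher and 7.15% lower in Atg7-KO, and 31.2% and 4.57% in S351A. Under that scaling Ccpg1 was called higher, at 1.02 in Atg7-KO (adjusted p = 0.00105) and at 0.87 in S351A (adjusted p = 0.00653). Cdk5rap3 then stood at -0.17 in Atg7-KO (adjusted p = 0.489) and at -0.39 in S351A (adjusted p = 0.169), with no call. Under both scalings Cdk5rap3 had the lowest and Ccpg1 the highest value of the 10 receptors in both comparisons with cont. The 20 genes with most counts held between 21.5% and 30.5% of counts in cont libraries and between 15.4% and 17.7% in the other 6.

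**Figure D2:**
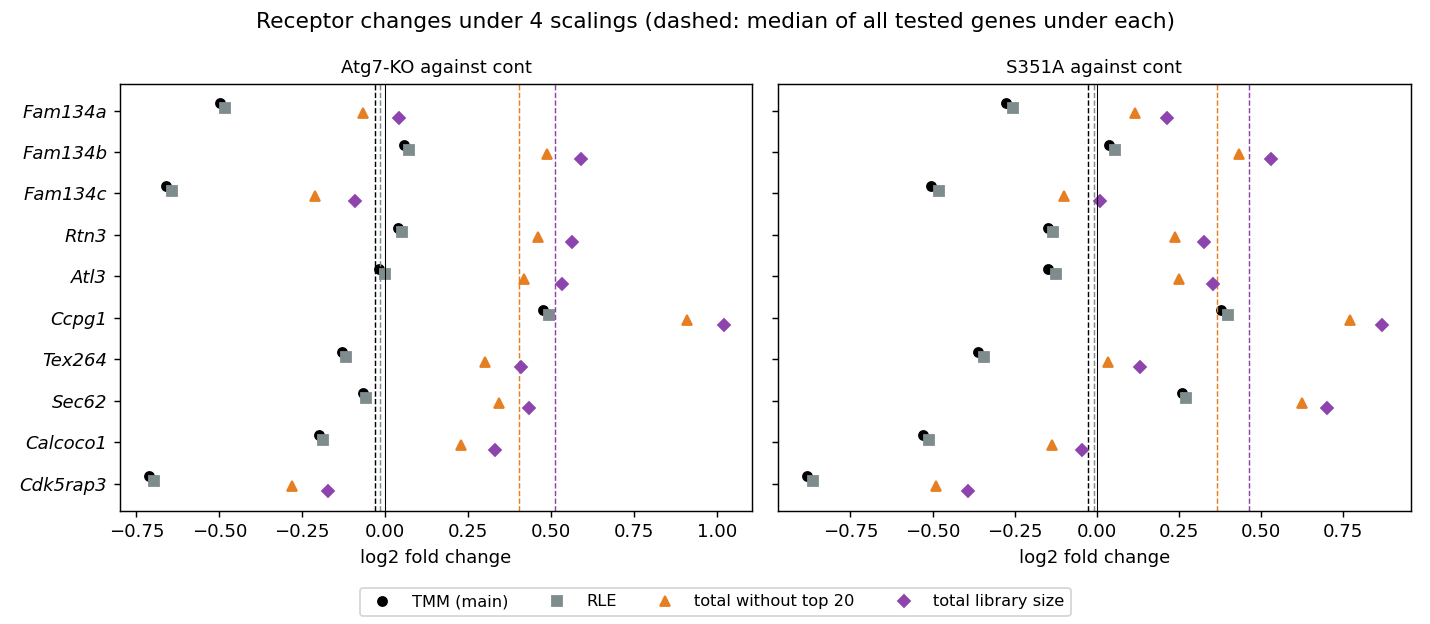
Log2 fold change of each receptor RNA (horizontal axis) against cont under 4 ways of scaling the libraries (symbols), with dashed lines at the median of all tested genes under each. From TMM to total library size the median shifts by 0.54 in Atg7-KO and 0.49 in S351A, and Ccpg1 lies to the right of it under each scaling.

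A ratio between receptors of the same library carries no scaling factor. Each receptor was therefore also expressed as the log2 ratio of its counts (plus 0.5) to the mean over the 10 receptors in its library. For Cdk5rap3 this ratio was -0.04, -0.62 and -0.09 in cont, -0.81, -0.92 and -0.74 in Atg7-KO and -0.81, -1.03 and -0.97 in S351A. For Ccpg1 it was -0.93, -1.20 and -0.85 in cont, -0.45, -0.33 and -0.34 in Atg7-KO and -0.27, -0.18 and -0.88 in S351A. Relative to the other receptors, Cdk5rap3 was thus lower in all 6 libraries with Alb-Cre, by 0.57 in Atg7-KO and 0.68 in S351A, and Ccpg1 was higher in all 3 Atg7-KO libraries, by 0.62. The exact two-sided permutation test gave p = 0.1 for each of these 3 differences, the smallest p that 3 libraries against 3 allow, and the adjusted p was 0.6 over 30 tests. In S351A against Atg7-KO, the ratio did not overlap between groups for Fam134a, which was higher by 0.28, and for Calcoco1, which was lower by 0.28. The permutation test gave p = 0.1 and an adjusted p of 0.6 for each, and no share over all tested genes exists for this ratio.

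**Figure D3:**
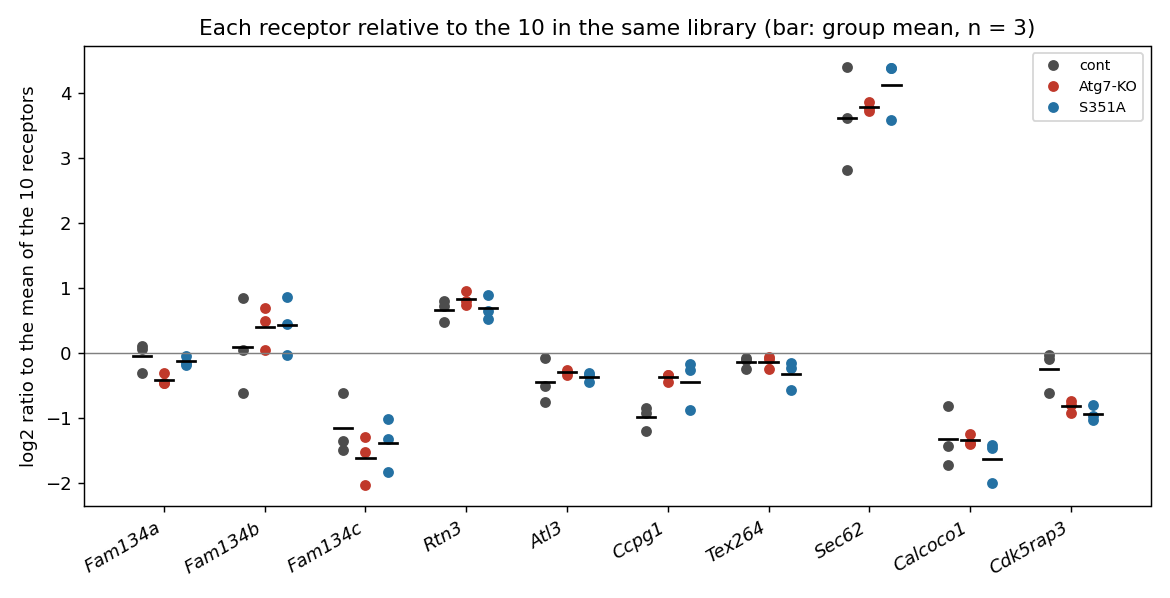
Log2 ratio of each receptor to the mean of the 10 receptors in the same library (vertical axis), with a point per library and a bar at the mean of each group. Cdk5rap3 is lower in Atg7-KO and S351A than in cont, by 0.57 and 0.68, Ccpg1 is higher in Atg7-KO by 0.62, and Sec62 stands above all others in every library.

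The FAM134 proteins share a reticulon-like domain that bends the ER membrane, and the mouse genes are now named Retreg2 (Fam134a), Retreg1 (Fam134b) and Retreg3 (Fam134c). Fam134a (chr1:75142778-75147913) had 75.1, 66.8 and 85.4 CPM in cont. It had 50.4, 50.3 and 60.9 CPM in Atg7-KO and 61.6, 64.1 and 62.5 CPM in S351A. The cont libraries lay above all others, and the S351A libraries above those of Atg7-KO. In Atg7-KO the change passed the adjusted p but not the fold minimum (log2 fold change -0.50 ± 0.18, adjusted p = 0.0429), so it was not called, and under total library size it stood at 0.04. In S351A the value was -0.28 (adjusted p = 0.294), and between S351A and Atg7-KO it was 0.22, with a 95% interval from -0.19 to 0.63.

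Fam134b (chr15:25843180-25973687), the ER-phagy receptor of ER sheets, varied most within cont. Its 3 cont libraries had 46.7, 148.6 and 81.4 CPM, and this range held all of the other libraries, which lay between 68.4 and 127.4 CPM. The log2 fold change was 0.06 in Atg7-KO (95% interval -0.74 to 0.85) and 0.04 in S351A (95% interval -0.78 to 0.86). Fam134c (chr11:101096322-101119893) had 25.3, 32.2 and 51.9 CPM in cont, against 28.1, 24.2 and 18.2 CPM in Atg7-KO and 19.4, 25.9 and 34.3 CPM in S351A. Its value of -0.66 ± 0.28 in Atg7-KO (adjusted p = 0.0853) was not called, and the libraries overlapped.

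Rtn3 (chr19:7425901-7483281), whose long isoform fragments ER tubules, and Atl3 (chr19:7494040-7539674), a GTPase that joins them, are neighbours on the chromosome. Rtn3 ran from 110 to 137 CPM in cont, from 115 to 146 CPM in Atg7-KO and from 100 to 131 CPM in S351A. Atl3 ran from 48.9 to 75.2 CPM in cont, from 55.2 to 61.3 CPM in Atg7-KO and from 51.3 to 55.1 CPM in S351A. Their log2 fold changes against cont were 0.04 and -0.02 in Atg7-KO, and -0.15 and -0.15 in S351A. Gene counts do not separate the isoforms of Rtn3, and the gene 2700081O15Rik overlaps its exons on the opposite strand.

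Tex264 (chr9:106658746-106685927), a membrane-anchored receptor with a long disordered stretch that reaches past ribosomes, ran from 60.6 to 76.9 CPM in cont, from 63.2 to 66.7 CPM in Atg7-KO and from 44.4 to 62.5 CPM in S351A. Its log2 fold change was -0.13 in Atg7-KO and -0.36 in S351A (adjusted p = 0.194). Calcoco1 (chr15:102706777-102722178), a soluble receptor held to the ER by VAPA and VAPB, ran from 23.8 to 46.8 CPM in cont, from 26.4 to 29.0 CPM in Atg7-KO and from 16.0 to 25.7 CPM in S351A. Its log2 fold change was -0.20 in Atg7-KO and -0.53 in S351A (adjusted p = 0.217). Between S351A and Atg7-KO, the libraries of Atl3, Tex264 and Calcoco1 did not overlap, with S351A lower, and those of Fam134a did not overlap, with S351A higher. The share of all tested genes without overlap in that comparison was 16.9%, and none of these 4 receptors had an adjusted p under 0.882 there.

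Sec62 (chr3:30792875-30821263) encodes a subunit of the translocation machinery that also acts as the receptor for excess ER during recovery from stress. It had 1524, 1020 and 557 CPM in cont, against 1014, 948 and 998 CPM in Atg7-KO and 1467, 1397 and 847 CPM in S351A. The cont libraries held both the lowest and the highest of the 9 values, and the one with the lowest level was the deepest. The log2 fold change was -0.07 ± 0.34 in Atg7-KO (95% interval -0.81 to 0.67) and 0.26 ± 0.34 in S351A (95% interval -0.48 to 1.00). Exons of the antisense gene 4933429H19Rik overlap those of Sec62, and reads shared between them were not tested. Leaving out cont replicates in turn moved its value in Atg7-KO between -0.37 and 0.32.

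**Figure D4:**
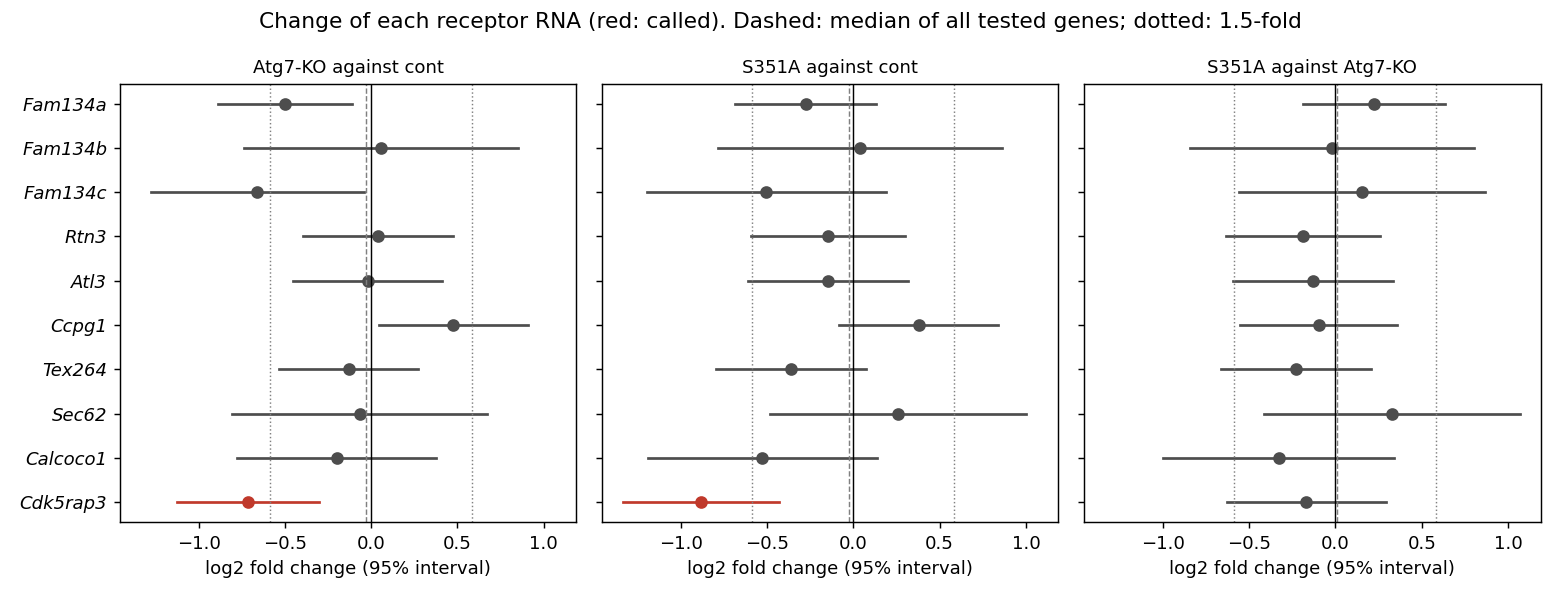
Log2 fold change of each receptor RNA with its 95% interval (horizontal axis) in the 3 comparisons; red marks called genes, the dashed line the median of all tested genes and the dotted lines a 1.5-fold change. Cdk5rap3 is red at -0.71 and -0.88 against cont, and no receptor is red in S351A against Atg7-KO.

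Levels were compared between genes after division by the length of their exons in GENCODE M21. On this scale Sec62 was the highest receptor in each group, with means (± SD, n = 3) of 238 ± 111 CPM per kb in cont, 227 ± 7.9 for Atg7-KO and 285 ± 78.2 for S351A. In cont, Fam134a, Rtn3, Tex264 and Fam134b followed between 22.3 and 25.3 CPM per kb, and differed by less than their spread. Cdk5rap3 came sixth in each group, with 17.3 ± 2.83 CPM per kb in cont, 10.6 ± 1.10 for Atg7-KO and 9.40 ± 1.03 for S351A. Atl3, Calcoco1 and Ccpg1 were lowest in cont, between 5.24 and 5.76 CPM per kb and within one another's spread. In Atg7-KO, Ccpg1 (7.36 ± 0.60) stood above Atl3 (5.76 ± 0.30) and Calcoco1 (4.89 ± 0.25).

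Genes that work with each receptor were read from lists chosen by function. Their counts of calls stand beside 18.1% lower and 19.9% higher of all tested genes in Atg7-KO, and 13% and 15.6% in S351A, and their medians beside -0.03 in both. With total library size as the scaling, these shares were 7.15% lower and 38.3% higher in Atg7-KO, and 4.57% and 31.2% in S351A, and the medians of all tested genes rose by 0.54 and 0.49. UFM1 is attached to ribosomes at the ER by the ligase of UFL1, DDRGK1 and CDK5RAP3. Of 7 tested genes listed for this pathway, 2 were called lower and 1 higher in Atg7-KO, and 1 lower in S351A, with medians of -0.31 and -0.50. Under total library size 1 was called higher and 0 lower in each. The 1 called higher was each time the row 4930453N24Rik, entered as Odr4 by a symbol match that was not checked. It may be another gene, and these counts and medians include it. Ufl1 (chr4:25248600-25281821), the catalytic partner, had 77.7, 61.5 and 74.5 CPM in cont. It had 37.1, 33.9 and 35.9 CPM in Atg7-KO and 39.9, 39.5 and 55.1 CPM in S351A. All 6 libraries with Alb-Cre lay below cont, as for Cdk5rap3. Ufl1 fell in Atg7-KO by 1.00 (SE 0.19, adjusted p = 0.00143) and in S351A by 0.67 (SE 0.20, adjusted p = 0.0269) on the log2 scale, and was not called under total library size (-0.46 and -0.18). It was called under 17 of 20 alternative settings in Atg7-KO and 12 in S351A. Its exons overlap those of Gm11906 on the opposite strand, and reads shared between them were not tested. Ufsp2, a protease that removes UFM1, fell by 0.65 in Atg7-KO (adjusted p = 0.0316). The row 4930453N24Rik, whose place in this pathway was not checked, rose there by 1.07 (adjusted p = 0.0153). Under total library size Ufsp2 was not called (-0.10, adjusted p = 0.741), and 4930453N24Rik was (1.62). Of 20 alternative settings Ufsp2 was called under 11 and 4930453N24Rik under 18. Ddrgk1, the membrane anchor of the ligase, was not called, with values of -0.32 and -0.34, and neither was Ufm1, with -0.31 and -0.56.

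SEC62 works with SEC63 beside the SEC61 channel. Of 9 tested genes of the channel and its accessory proteins, 5 were called lower and 0 higher in Atg7-KO, and 5 lower and 0 higher in S351A, with medians of -0.77 and -0.79. The counts under total library size were 2 lower and 1 higher (Sec61a1, at 1.18 and 0.89) in each comparison, with medians of -0.23 and -0.31. Sec63 had 194, 146 and 187 CPM in cont, against 67.3, 77.0 and 80.9 CPM in Atg7-KO and 104.9, 101.1 and 99.2 CPM in S351A, while Sec62 was not called. It fell by 1.23 in Atg7-KO (SE 0.19, adjusted p = 0.000425) and by 0.79 in S351A (SE 0.20, adjusted p = 0.0105). Its exons overlap those of Gm26860 on the opposite strand, and reads shared between them were not tested. Sec61g fell by 1.59 and 1.25, and Sec61b by 1.51 and 1.93; both encode small subunits of the channel. Tram1, an accessory protein of the channel, fell by 1.00 in S351A (adjusted p = 0.00864). Under total library size, Sec63 and Sec61g were called in Atg7-KO (-0.70 and -1.04) while Sec61b (-0.92, adjusted p = 0.0700), Ssr1 (-0.19) and Tram1 (-0.23) lost their calls. In S351A, Sec61g and Sec61b were called under that scaling (-0.75 and -1.40), whereas Sec63, Tram1 and Ssr3 were not (-0.31, -0.50 and -0.39), and Ssr3 was called under 6 of 20 alternative settings.

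Reticulons, REEPs and atlastins shape the ER as RTN3, ATL3 and the FAM134 proteins do. Of 10 tested genes of this list, edgeR called 3 higher and 3 lower in Atg7-KO, and 2 higher and 2 lower in S351A, with medians of 0.04 and -0.08. Rtn4, the paralog of Rtn3, had 8.21, 29.4 and 18.6 CPM in cont, against 88.9, 101.9 and 97.7 CPM in Atg7-KO and 71.9, 57.9 and 41.6 CPM in S351A. It rose by 2.31 in Atg7-KO (SE 0.33, adjusted p = 0.000220) and by 1.57 in S351A (SE 0.35, adjusted p = 0.00562), and was called under all 20 alternative settings in both comparisons. Ckap4, which spaces ER sheets, rose by 1.98 and 2.12, from a low level. It ran from 2.31 to 4.42 CPM in cont, from 9.27 to 16.6 CPM in Atg7-KO and from 6.13 to 22.8 CPM in S351A. Atl2, the paralog of Atl3, fell by 1.00 in Atg7-KO (adjusted p = 0.00362) and by 0.68 in S351A (adjusted p = 0.0485). Arl6ip1, another hairpin protein, fell by 0.63 in Atg7-KO (adjusted p = 0.0253) and by 0.70 in S351A (adjusted p = 0.0233). Under total library size neither was called in Atg7-KO or S351A (Atl2 -0.45 and -0.18, Arl6ip1 -0.10 and -0.22). That scaling called 5 genes of the list higher in Atg7-KO, 4 in S351A and 0 lower.

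**Figure D5:**
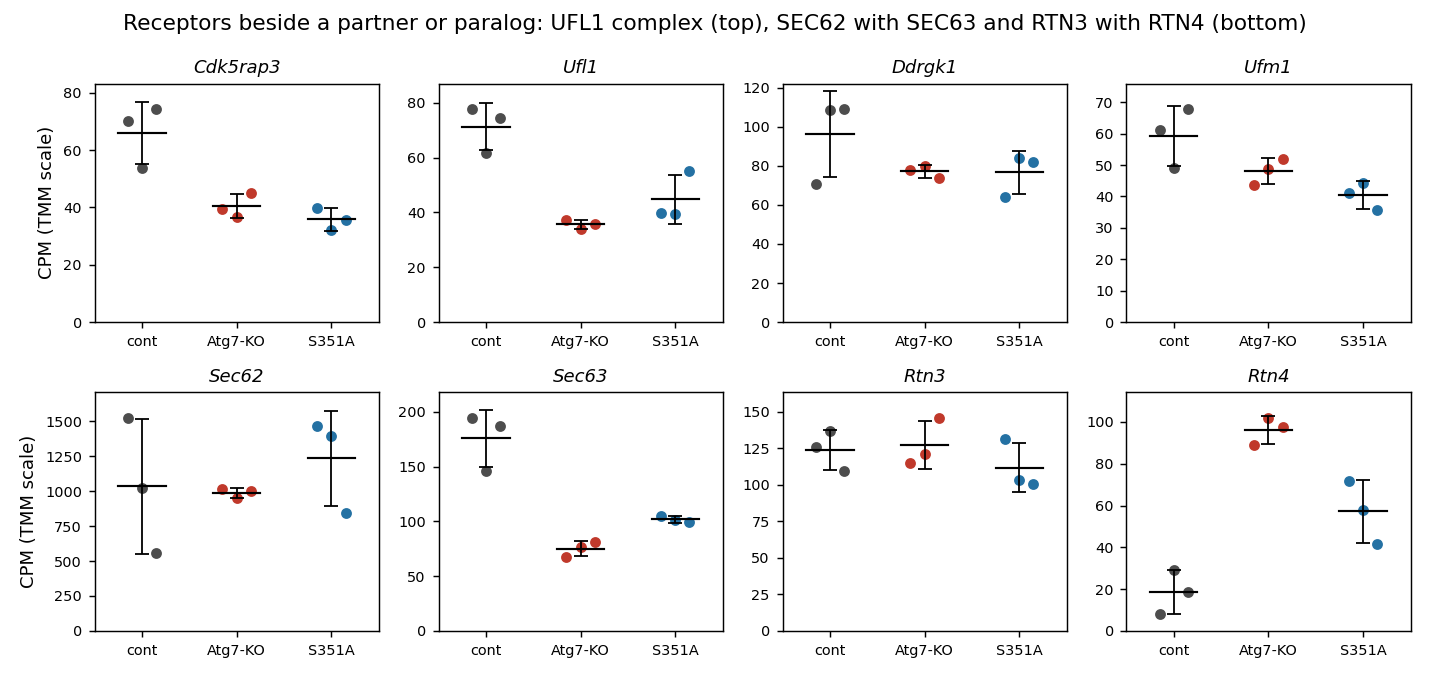
Level in CPM on the TMM scale (vertical axis, from 0) of receptors beside a partner or paralog in the 3 libraries of each group; points are libraries, and the line and bar give mean and SD. For Ufl1, as for Cdk5rap3, all 6 libraries with Alb-Cre lie below cont, Sec63 is lower in Atg7-KO and S351A while Sec62 is not called, and Rtn4 is higher while Rtn3 is not called.

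The ATG8 proteins and FIP200 bind the receptors directly. Of 6 tested, Map1lc3a rose by 0.69 in Atg7-KO (adjusted p = 0.0187), and Gabarapl1 and Gabarapl2 fell by 0.79 and 0.73 (adjusted p = 0.0218 and 0.0257). In S351A against cont, 0 of 6 were called by edgeR, and 3 had an unadjusted p under 0.05, as 41% of all tested genes did. The median of this list was -0.10 in Atg7-KO and -0.11 in S351A. Scaling by total library size called 2 higher in Atg7-KO, 1 in S351A and 0 lower. Of 5 tested partners that receptors use at the ER or at its exit sites, Vapa and the COPII coat gene Sec24c fell in Atg7-KO by 0.61 and 0.65 (adjusted p = 0.0251 and 0.0210), and Vapa fell in S351A by 0.80 (adjusted p = 0.0132). The median of the 5 was -0.10 in Atg7-KO and -0.35 in S351A. In Atg7-KO, Vapa was called under 11 of 20 alternative settings, Sec24c and Gabarapl2 under 12, Gabarapl1 under 14 and Map1lc3a under 17. Under total library size these genes stood at 1.23 (Map1lc3a), -0.25 (Gabarapl1), -0.20 (Gabarapl2), -0.07 (Vapa) and -0.11 (Sec24c) in Atg7-KO, and only Map1lc3a of these 5 was called there. Vapa in S351A stood at -0.31 and was not called. Of the 5 partners, 1 (Vapb) was called under that scaling, higher in both comparisons.

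Among 11 tested receptors for other cargo, 1 was called higher and 2 lower in Atg7-KO, and 2 lower in S351A, with medians of -0.25 and -0.34. Stbd1, a receptor for glycogen, rose by 0.79 in Atg7-KO (adjusted p = 0.0148). Bnip3, a receptor for mitochondria, fell by 1.23 and 1.09, and Optn, a receptor for ubiquitinated cargo, by 0.96 and 0.76. Under total library size Bnip3 (-0.71 and -0.61) and Optn (-0.43 and -0.28) were not called in either comparison, and Stbd1 was called in Atg7-KO (1.33). Sqstm1, which encodes p62, had values of 0.38 in Atg7-KO and -0.05 in S351A and was not called, but under total library size it was called higher in Atg7-KO (0.90, adjusted p = 0.00487). That scaling called 4 of the 11 higher in Atg7-KO, 3 in S351A and 0 lower. Of 8 tested transcription factors known to act on ER-phagy or ER stress genes, none (0) was called by edgeR in either comparison with cont, and 1 had an unadjusted p under 0.05 in each, as 47.5% of all tested genes did in Atg7-KO and 41% in S351A. Their median was -0.12 in Atg7-KO and -0.08 in S351A. Scaling by total library size called 1 higher in each, Ddit3 (0.99) in Atg7-KO and Tfeb (0.90) in S351A. In S351A against Atg7-KO, 0 genes were called in any of these 7 lists by edgeR, with between 0 and 2 genes per list at an unadjusted p under 0.05, where 6.6% of all tested genes were.

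Over the 9 libraries, the genes whose log2 CPM followed Cdk5rap3 most closely were Mup12 (Pearson r = 0.977), Vapa (0.974) and Cwc15 (0.972). Mup12, a major urinary protein gene, had between 87.1 and 2066 CPM in cont and between 0 and 6.21 CPM in the other 6 libraries; it belongs to a family of near-identical copies, so its counts are uncertain. Vapa had between 68.2 and 96.4 CPM in cont and between 41.9 and 57.7 CPM in the others. Cwc15, a splicing factor gene, had between 62.6 and 88.3 CPM in cont and between 39.9 and 52.2 CPM in the others. The points share the same libraries, scaling and group differences, and the order describes these libraries only.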

How the data were processed

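Poly(A) RNA of 9 livers was sequenced, and the authors used Trim Galore, STAR (mm10) and RSEM in turn. Per gene symbol, the deposited table gives RSEM expected counts with no scaling between libraries. Its annotation, strand setting and tool versions are not given in the sources used here. Expected counts were rounded for the fits and for log2 CPM, while CPM levels and the ratios within libraries used them unrounded. Gene positions and exon lengths came from GENCODE M21, and promoter sequences from RefSeq (GRCm38.p6).

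Counts were fitted in edgeR 4.0.16 (R 4.3.3). The filter filterByExpr (minimum count 10, minimum total 15) kept 11199 genes, libraries were scaled by TMM, and 1 quasi-likelihood model held all 9 libraries. Each pair of groups, and the 3 groups together, were compared by its F test with Benjamini-Hochberg adjustment over all 11199 genes, and a gene was called at an adjusted p under 0.05 and a fold change above 1.5 (no fold minimum for the test among 3 groups). SEs are those implied by the F statistic, and log2 CPM used a prior count of 2. Ratios within libraries used a pseudocount of 0.5. Intervals cover the spread between these livers. The fit was tested on simulated counts in which 200 genes changed, with as many rises as falls, so the choice of scaling was not tested.

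The receptors and the lists of partner and marker genes were chosen with earlier results of these data known. Named were the 10 receptors, Atg7, Sqstm1, up to 3 called genes with the largest change per list and comparison, and the 3 genes nearest in pattern to each called receptor. Ufm1, Ddrgk1, Pigb, D030028A08Rik and 2700081O15Rik were added after their values were seen. So were the values of Sec63 and Atl2 in S351A and of Arl6ip1 in Atg7-KO. Alternatives were DESeq2 1.42.0 and limma-voom (limma 3.58.1), and scaling by RLE, by totals or by totals less the 20 most abundant genes. Others were unfiltered genes, a minimum of 10 counts per library throughout, fits to the 6 compared libraries alone, and the replicate number as a block. Further ones were thinning each library to 713835 counts, no fold minimum, a pseudocount of 2, and leaving out each library. Counting Cdk5rap3 together with D030028A08Rik was added after seeing the data.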

Additional observations from a re-analysis of the deposited data

How the results depend on the processing

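The receptor count in Atg7-KO against cont was 1 under 14 of 21 alternatives. It was 2 with no filter (Cdk5rap3, Fam134c) and 2 with no fold minimum (Cdk5rap3, Fam134a). It was 0 after thinning and 0 with Cdk5rap3 and its antisense transcript counted together. Leaving out a library gave 0 (without Atg7-KO replicate 2) to 2 (without cont replicate 1, which added Fam134c, or without cont replicate 2, which added Fam134a). In S351A against cont the count was 0 after thinning, 0 with the antisense transcript, and 1 without any one library. Among the 3 groups it was 0 after thinning and 0 with the antisense transcript. In S351A against Atg7-KO it was 0 under each alternative run. The cause of the calls lost after thinning was not tested. Under total library size, and under totals less the 20 most abundant genes, the count stayed 1 but the gene was Ccpg1. Cdk5rap3 kept its sign under all 20 alternatives with a fold change in both comparisons with cont, and its adjusted p ran from 0.00481 to 0.489 in Atg7-KO and from 0.00287 to 0.169 in S351A. The labels do not say that replicate numbers pair the livers. Same-numbered libraries correlated at -0.04 to 0.31, with 5 of 9 pairs over 0.1, and others at -0.26 to 0.21, with 2 of 18 over 0.1. Between cont and S351A all 3 same-numbered pairs were over 0.1 (0.160 to 0.235). Whether the numbers pair the livers was not tested, and the main fit did not use them. With the replicate block the counts were 1, 1 and 0, and Cdk5rap3 stood at -0.70 (adjusted p = 0.00831) and -0.87 (adjusted p = 0.00663). Of 200 receptor values under alternatives in each comparison, 27 changed sign in Atg7-KO against cont, 16 in S351A against cont and 6 in S351A against Atg7-KO. All of them were values without a call. Those against cont include changes under total library size, which raised the median of all tested genes by 0.54 in Atg7-KO and 0.49 in S351A.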
